A study of Mus musculus with 12 samples.

Results

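The genes of sterol and fatty acid synthesis are described here in mouse neuroblastoma cells depleted of Sap30bp, a nuclear protein that binds the histone deacetylase complex subunit SAP30. The set was a named list of 31 genes, taken by symbol with no threshold on any value, although it was drawn up with earlier results of these data known, and all 31 were found among the 54393 genes of the authors' expression table and among the 21541 genes for which that table gives a test. By role they were 8 enzymes of the mevalonate steps, 11 of the squalene and sterol steps, 6 genes of SREBP control and sterol transfer, and 6 of fatty acid synthesis.

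RNA-seq of polyA RNA was done on 12 libraries in 6 groups of 2 biological replicates each. All cells were N2a Flp-In rtTA, a mouse neuroblastoma line with a docking site for a cDNA and the doxycycline-responsive activator, and all of them, controls included, carried a FLAG-tagged, siRNA-resistant Sap30bp cDNA. In the withExon3 line (FLAG-Sap30bp_withExon3 in the labels) the cDNA contained exon 3 of Sap30bp, and in the withoutExon3 line (FLAG-Sap30bp_withoutExon3) it lacked that exon. Each line was taken as rescue (Sap30bp siRNA, with doxycycline to induce its cDNA), as knockdown (the same siRNA, cDNA not induced) and as control (a non-targeting siRNA pool). Only rescue cells received doxycycline, so the agent and the induced protein cannot be told apart, and whether each line is 1 clone is not given in the labels. Medium was changed at 24 h after transfection, cells were harvested at 72 h, and wells of 1 condition were combined before RNA was taken.

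As background, mevalonate made from acetyl-CoA is carried through isoprenoid diphosphates to squalene, which is closed to lanosterol and trimmed to cholesterol. The transcription factors SREBP1 and SREBP2 are made as membrane precursors that SCAP escorts to the Golgi for cleavage when sterols are scarce, and the INSIG proteins hold SCAP back when sterols are plentiful. SREBP2 is best known for driving the sterol enzymes and SREBP1 for driving fatty acid enzymes, and neural tissue makes its own cholesterol, since blood lipoproteins do not cross into the brain.

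Expression is reported as the authors deposited it, as 1 RPKM value (reads scaled to transcript length and library size) per group, so no spread between replicates can be given for a level. Changes are the log2 fold changes and false discovery rates (FDR) of the authors' deposited table, and a gene is said to have risen or fallen only where its FDR was under 0.05. Fold changes and RPKM ratios were close but not identical, with a median gap of 0.03 to 0.07 on the log2 scale per comparison over 9060 genes of at least 5 RPKM in every group. Their sign differed in 1 to 4 members per comparison, most often Ggps1. Sap30bp itself stood at 18.6 RPKM in knockdown and 33.6 RPKM in control cells of the withExon3 line, and at 21.7 RPKM in knockdown and 40.03 RPKM in control cells of the withoutExon3 line. The FDR of this difference was 0.068 in the withExon3 and 0.067 in the withoutExon3 line in the authors' deposited table, above the threshold in both. Its rescue levels, 141.3 RPKM in the withExon3 and 196.5 RPKM in the withoutExon3 line, include the cDNA. By fold change in the authors' deposited table the differences of Sap30bp were smaller. Knockdown over control was at -0.60 in the withExon3 and -0.63 in the withoutExon3 line, against log2 RPKM ratios of -0.85 and -0.88. Rescue over control was at 1.02 and 1.42 in the same order of lines, against log2 RPKM ratios of 2.07 and 2.29. The 8 neuroblastoma markers summed to between 372 and 685 RPKM per group, with Th, the tyrosine hydroxylase gene, at no more than 0.52 RPKM. Marker sums were 0.97 to 3.81 RPKM for fibroblasts, 7.16 to 10.5 RPKM for glia, 0.87 to 2.69 RPKM for immune cells and 0.40 to 3.30 RPKM for adipocyte and liver cells. In such bulk samples fewer cells of a type and less RNA per cell cannot be told apart.

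All 31 members were well expressed. The desaturase gene Scd2, the main neural isoform for placing a double bond in saturated fatty acids, was at 359 to 579 RPKM per group, and Acly, the ATP citrate lyase that supplies cytosolic acetyl-CoA, was at 170.04 to 238 RPKM. Fdps, which makes farnesyl diphosphate, was at 122 to 175 RPKM. At the low end, Mvk, the mevalonate kinase, was at 7.73 to 12.9 RPKM, and its neighbour in the order, Scd1, the other desaturase, was at 9.86 to 19.9 RPKM. These ranges overlap, as do those of all neighbours in the order of levels except Scd2 and Acly. Of the 31 members, 22 had their highest level in control cells of the withoutExon3 line and 18 their lowest in rescue cells of the withExon3 line. The same count was not made over all genes, so these numbers have no background beside them.

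**Figure D1:**
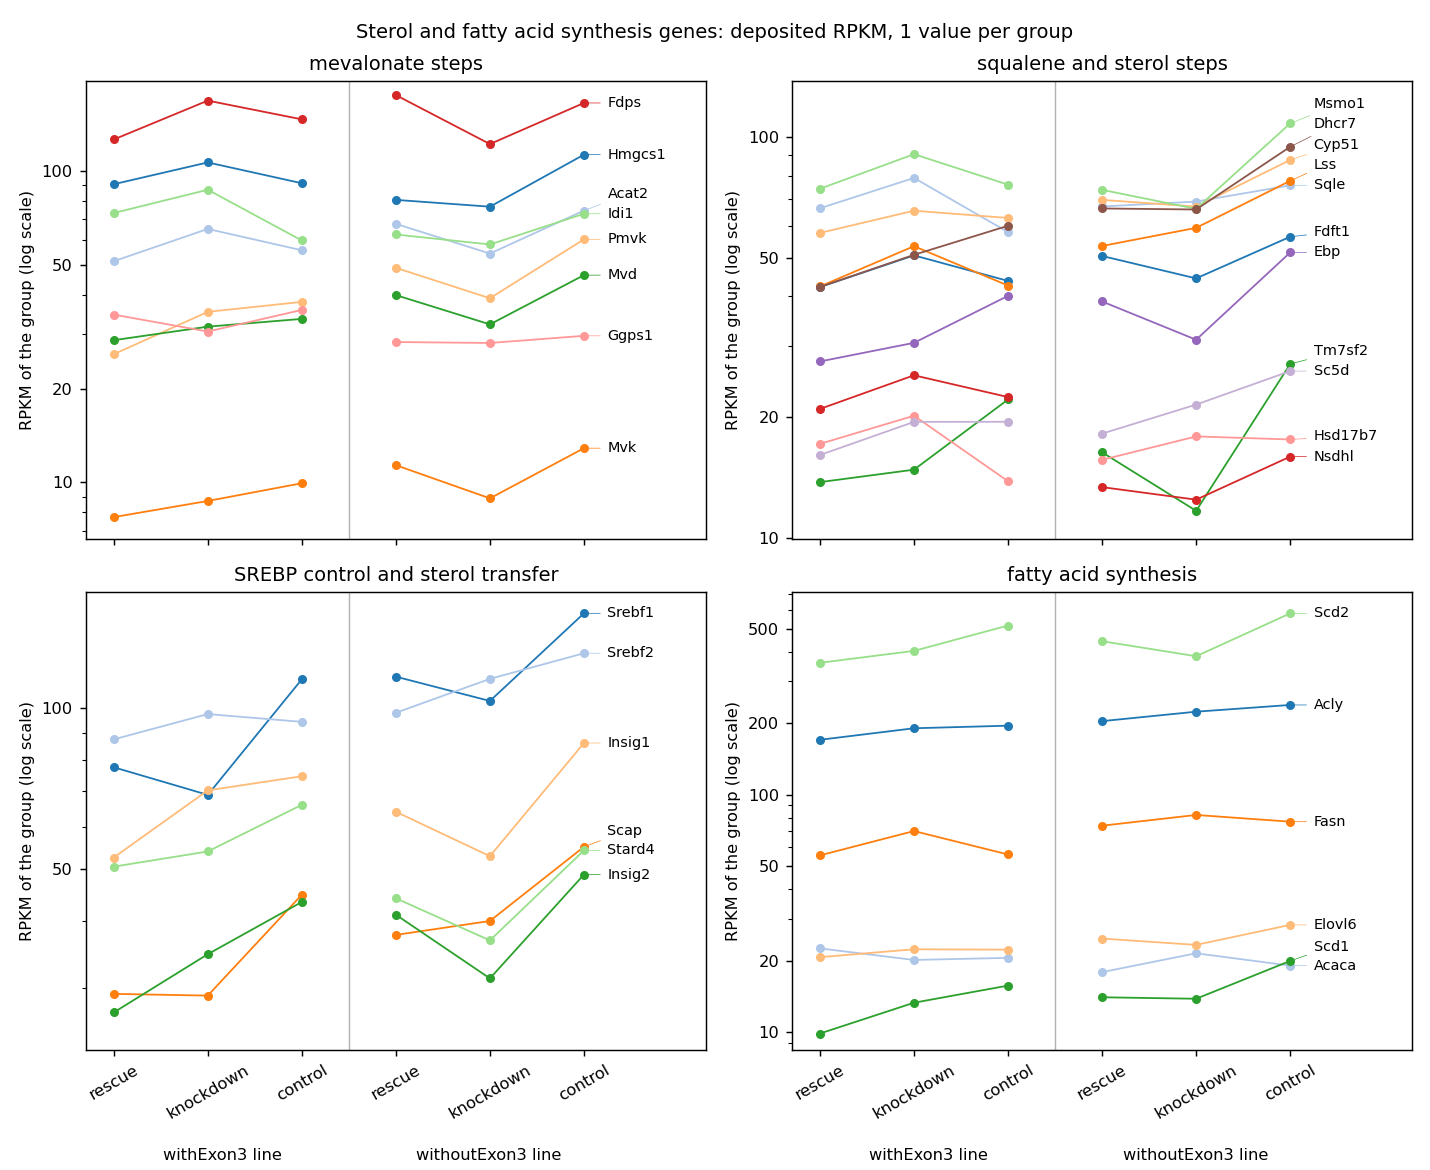
RPKM of each member (log axis) in rescue, knockdown and control cells of the withExon3 line (left of each panel) and of the withoutExon3 line (right), 1 deposited value per group with no error bar. In the withoutExon3 line most lines dip at knockdown, as for Tm7sf2 at 11.7 against 27.1 RPKM in control cells, while several in the withExon3 line peak there, as for Idi1 at 87.0 against 59.8 RPKM.

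Knockdown was accompanied by lower levels of most of these genes in the withoutExon3 line and by a mixed picture in the withExon3 line. In the withoutExon3 line 2 of 31 members fell, the sterol reductase gene Tm7sf2 and the sterol methyl oxidase gene Msmo1, and 0 rose, where 2.26% of all genes tested were called in either direction and 1.14% fell in the authors' deposited table. In the withExon3 line 0 of 31 were called, where 3.68% of all genes were, and at an unadjusted p under 0.05 it was 3 higher and 4 lower, against 5.48% and 8.09% of all genes. The median log2 fold change of the members was 0.03 in the withExon3 line and -0.44 in the withoutExon3 line, beside -0.02 (withExon3) and -0.03 (withoutExon3) over 12834 genes of at least 1 RPKM in the authors' deposited table. By RPKM ratio the members' medians were -0.03 in the withExon3 and -0.46 in the withoutExon3 line on the log2 scale, so in the first the sign of a median near 0 differs between the 2 measures. In the withoutExon3 line 28 of 31 members were below 0, beside 53.3% of those genes, and in the withExon3 line 15 of 31 were, beside 51.8%. At an unadjusted p under 0.05, 15 of 31 members were lower in the withoutExon3 line, beside 6.6% of all genes tested. Among the 12834 genes of at least 1 RPKM, 1183 were lower there at that p and 223 fell by the deposited FDR. In the withExon3 line 732 of these genes were higher and 1392 lower at that p. By the sign of the 2 fold changes, 15 members were lower in both lines, 13 were higher in the withExon3 and lower in the withoutExon3 line, and 3 were higher in both. The summed neuroblastoma markers were higher in knockdown cells, at 586 RPKM against 372 RPKM in control cells of the withExon3 line and 630.01 RPKM against 536 RPKM in the withoutExon3 line. Of the 8 markers 3 rose on knockdown in the withExon3 and 1 in the withoutExon3 line in the authors' deposited table, 0 fell, and their part in these values was not tested.

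Tm7sf2 encodes a sterol reductase that removes the double bond at carbon 14 after the methyl group there is taken off. It stood at 14.8 RPKM in knockdown and 22.1 RPKM in control cells of the withExon3 line, and at 11.7 RPKM in knockdown and 27.1 RPKM in control cells of the withoutExon3 line. The knockdown level was thus below control in both lines. Its log2 fold change was -0.66 (FDR 0.063) in the withExon3 line and -1.17 (FDR 2.96e-05) in the withoutExon3 line in the authors' deposited table. Msmo1, the methyl oxidase that acts on the carbon 4 methyl groups, stood at 90.5 RPKM in knockdown and 76.0 RPKM in control cells of the withExon3 line, and at 66.1 RPKM in knockdown and 108 RPKM in control cells of the withoutExon3 line. The 2 lines thus lay on opposite sides of their controls. Its log2 fold change was 0.23 (FDR 0.690) in the withExon3 line and -0.72 (FDR 0.012) in the withoutExon3 line in the authors' deposited table.

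Among the other squalene and sterol enzymes, none passed the FDR threshold on knockdown in either line. The median over the 11 was 0.18 in the withExon3 line and -0.43 in the withoutExon3 line in the authors' deposited table. Ebp, the sterol isomerase, had 30.6 RPKM in knockdown and 40.1 RPKM in control cells of the withExon3 line, and 31.2 RPKM in knockdown and 51.5 RPKM in control cells of the withoutExon3 line. Its log2 fold change was -0.44 (FDR 0.405) in the withExon3 and -0.73 (FDR 0.065) in the withoutExon3 line in the authors' deposited table. Dhcr7, which carries out the last reduction to cholesterol in one branch, was at -0.23 in the withExon3 and -0.59 in the withoutExon3 line in the authors' deposited table. Sqle, the squalene epoxidase, was at 79.0 RPKM in knockdown and 57.9 RPKM in control cells of the withExon3 line, against 69.0 RPKM in knockdown and 75.7 RPKM in control cells of the withoutExon3 line. The remaining members of this role, Fdft1 (squalene synthase), Lss (lanosterol synthase), Cyp51 (the lanosterol demethylase), Nsdhl and Hsd17b7 (which work on the carbon 4 and carbon 3 positions) and Sc5d (a sterol desaturase), ranged from 0.10 to 0.50 in the withExon3 line and from -0.44 to -0.07 in the withoutExon3 line in the authors' deposited table.

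The 8 genes of the mevalonate steps included none that passed on knockdown. Their median was 0.19 in the withExon3 line and -0.47 in the withoutExon3 line in the authors' deposited table. Hmgcs1, the cytosolic HMG-CoA synthase, stood at 106.5 RPKM in knockdown and 91.3 RPKM in control cells of the withExon3 line, and at 76.8 RPKM in knockdown and 113 RPKM in control cells of the withoutExon3 line. Idi1, which isomerises isopentenyl diphosphate, stood at 87.0 RPKM in knockdown and 59.8 RPKM in control cells of the withExon3 line, and at 58.1 RPKM in knockdown and 72.8 RPKM in control cells of the withoutExon3 line. Both genes were above control in the first line and below it in the second. Of the genes around them, Acat2, which joins acetyl-CoA units, was at 0.25 in the withExon3 and -0.45 in the withoutExon3 line, and Fdps at 0.17 and -0.45 in the same order of lines, in the authors' deposited table. Mvk was at -0.22 in the withExon3 and -0.49 in the withoutExon3 line, and Mvd, the decarboxylase that makes isopentenyl diphosphate, at -0.13 and -0.49, in the authors' deposited table. Pmvk, the phosphomevalonate kinase, was at -0.15 (FDR 0.891) in the withExon3 line and -0.62 (FDR 0.057) in the withoutExon3 line in the authors' deposited table. Ggps1, which makes geranylgeranyl diphosphate, was the 1 of the 8 above 0 in the withoutExon3 line, at 0.11, and was at 0.21 in the withExon3 line, in the authors' deposited table. Its RPKM went the other way, at 30.5 in knockdown and 35.8 in control cells of the withExon3 line and 28.0 in knockdown and 29.5 in control cells of the withoutExon3 line.

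The 6 genes of SREBP control and sterol transfer had a log2 fold change below 0 on knockdown in both lines, with 0 called, and by RPKM ratio 5 of 6 were below 0 in the withExon3 line. Their median was -0.41 in the withExon3 line and -0.59 in the withoutExon3 line in the authors' deposited table. Srebf1, the gene of SREBP1, stood at 68.8 RPKM in knockdown and 113 RPKM in control cells of the withExon3 line, and at 103 RPKM in knockdown and 150.3 RPKM in control cells of the withoutExon3 line. Its log2 fold change was -0.92 (FDR 0.059) in the withExon3 line and -0.58 (FDR 0.437) in the withoutExon3 line in the authors' deposited table. It was the most negative member in the withExon3 line. It passed there (1 member in all) when p-values were adjusted over the 12834 genes of at least 1 RPKM, of which 659 passed. Srebf2, the gene of SREBP2, stood at 97.4 RPKM in knockdown and 94.2 RPKM in control cells of the withExon3 line, and at 113 RPKM in knockdown and 127 RPKM in control cells of the withoutExon3 line. Its log2 fold change was -0.03 in the withExon3 and -0.13 in the withoutExon3 line (FDR 1 in both) in the authors' deposited table, so that in the withExon3 line fold change and RPKM differed in sign. Scap stood at 29.0 RPKM in knockdown and 44.8 RPKM in control cells of the withExon3 line, and at 40.03 RPKM in knockdown and 55.1 RPKM in control cells of the withoutExon3 line. Insig1 was at -0.05 in the withExon3 and -0.70 in the withoutExon3 line, and Insig2 at -0.50 in the withExon3 and -0.70 in the withoutExon3 line, in the authors' deposited table. Stard4, a carrier of free sterol between membranes, was at -0.32 in the withExon3 and -0.60 in the withoutExon3 line in the authors' deposited table.

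The 6 fatty acid genes had medians of 0.02 in the withExon3 line and -0.21 in the withoutExon3 line and 0 called in the authors' deposited table. Scd2 stood at 403 RPKM in knockdown and 515 RPKM in control cells of the withExon3 line, and at 382 RPKM in knockdown and 579 RPKM in control cells of the withoutExon3 line. Fasn, the fatty acid synthase, stood at 70.2 RPKM in knockdown and 55.9 RPKM in control cells of the withExon3 line, and at 82.1 RPKM in knockdown and 76.9 RPKM in control cells of the withoutExon3 line. In the authors' deposited table Acaca, the acetyl-CoA carboxylase, was at 0.03 in each line, and Acly at -0.03 in the withExon3 and -0.10 in the withoutExon3 line. Scd1 was at -0.00 in the withExon3 and -0.44 in the withoutExon3 line in the authors' deposited table. Elovl6, the elongase of medium-length saturated chains, was at 0.03 in the withExon3 and -0.31 in the withoutExon3 line in the authors' deposited table.

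**Figure D2:**
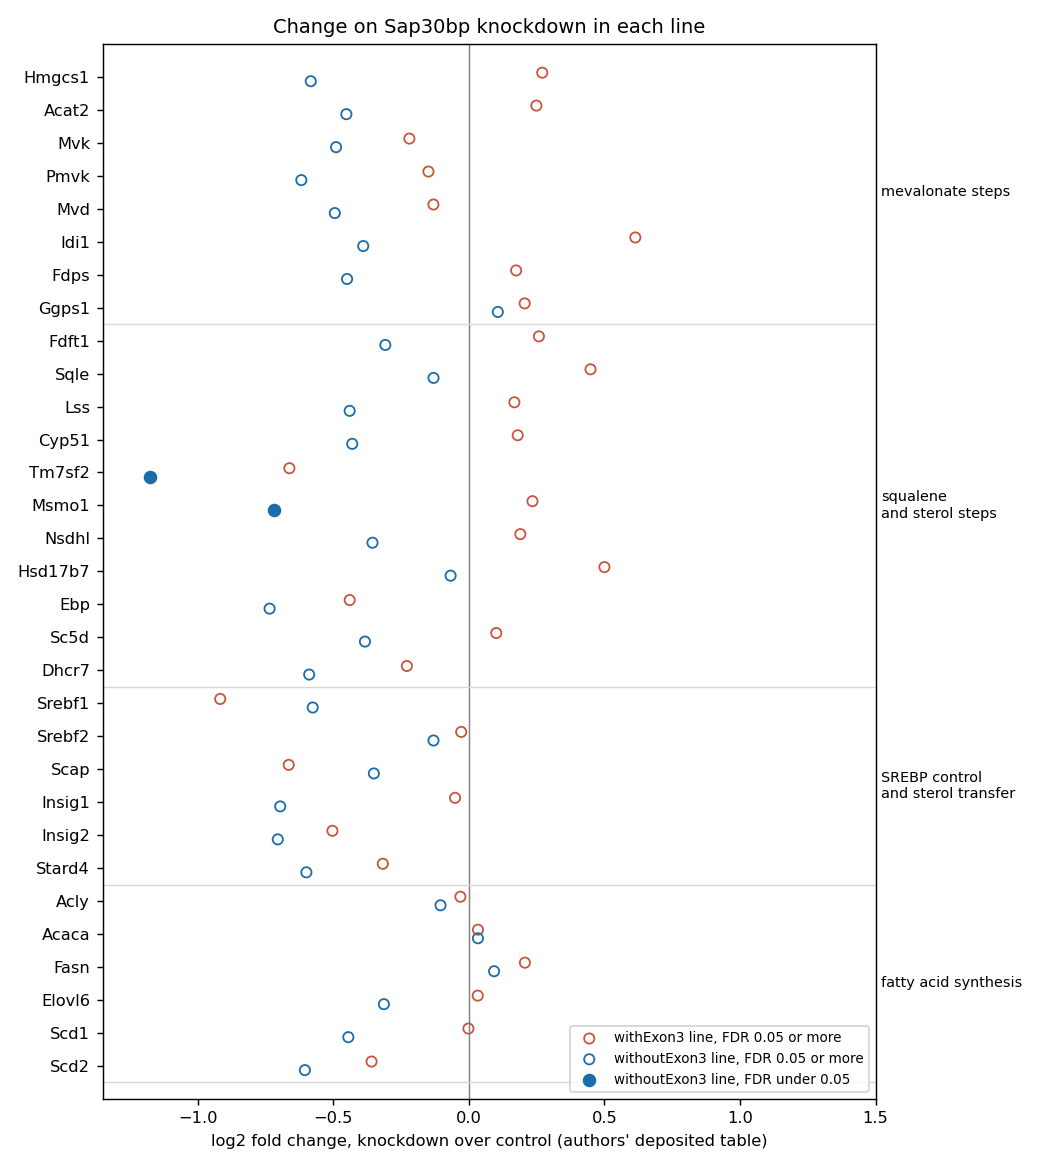
Log2 fold change of knockdown over control for each member, from the authors' deposited table, in the withExon3 line (red) and the withoutExon3 line (blue), with filled points at an FDR under 0.05. The 2 filled points are Tm7sf2 at -1.17 and Msmo1 at -0.72, and 28 of 31 blue points lie below 0 against 15 of 31 red points.

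The difference between the 2 knockdown changes was then tested for each gene, from the signed z of each line's p-value, which come from separate libraries. Of 31 members 0 passed after adjustment over all genes, and 0.00928% of all genes did. Of the 12834 genes of at least 1 RPKM, 59 were higher and 24 lower at an unadjusted p under 0.05. That is fewer than this threshold lets through where nothing differs, so the test was cautious and a count of 0 says little. The fold change was higher in the withExon3 line for 29 of 31 members, with a median difference of 0.44, beside -0.01 over the genes of at least 1 RPKM, of which 51.4% were below 0, computed from the authors' deposited table. At an unadjusted p under 0.05 there were 8 members, all higher in the withExon3 line, beside 0.692% of all genes tested. The 8 were Hmgcs1, Acat2 and Idi1 of the mevalonate steps and Fdft1, Sqle, Lss, Cyp51 and Msmo1 of the sterol steps. Msmo1 had a difference of 0.95 (unadjusted p 0.000371, adjusted p 0.737), and Idi1 had 1.00 (unadjusted p 0.00388, adjusted p 1), both computed from the authors' deposited table. In the other direction stood Srebf1 at -0.34 and Scap at -0.31, with unadjusted p-values of 0.428 and 0.393.

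Promoters of the members are shown because the sterol genes are a textbook case of joint control through the sterol regulatory element, with NF-Y at CCAAT boxes and Sp1 at GC boxes as partners. RefSeq sequences of build GRCm38.p6, from 250 bases before to 50 bases after the start site, were at hand for 25 of 31 members, with 33 promoters in all. The 3 members among them with the largest absolute log2 RPKM ratio on knockdown in the withoutExon3 line are printed, and Hmgcs1 was added after the search because it alone held the core of the element. Capitals mark CCAAT boxes on either strand (CCAAT or ATTGG) and, in Hmgcs1, also the core TCACNCCAC.
Tm7sf2, chr19:6067801-6068100, minus strand: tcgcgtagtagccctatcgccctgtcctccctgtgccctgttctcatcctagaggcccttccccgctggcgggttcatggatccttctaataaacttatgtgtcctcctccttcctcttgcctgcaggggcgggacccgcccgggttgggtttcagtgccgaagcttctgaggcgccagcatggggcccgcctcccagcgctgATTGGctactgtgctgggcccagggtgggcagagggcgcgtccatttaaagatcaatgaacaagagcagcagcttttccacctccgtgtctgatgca
Ebp, chrX:8193463-8193762, minus strand: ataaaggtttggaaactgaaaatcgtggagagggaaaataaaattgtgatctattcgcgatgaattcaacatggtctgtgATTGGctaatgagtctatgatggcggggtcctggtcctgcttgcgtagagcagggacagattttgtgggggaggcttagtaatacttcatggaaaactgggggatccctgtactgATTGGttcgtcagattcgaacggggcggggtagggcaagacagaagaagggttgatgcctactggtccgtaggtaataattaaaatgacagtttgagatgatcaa
Msmo1, chr8:64733529-64733828, minus strand: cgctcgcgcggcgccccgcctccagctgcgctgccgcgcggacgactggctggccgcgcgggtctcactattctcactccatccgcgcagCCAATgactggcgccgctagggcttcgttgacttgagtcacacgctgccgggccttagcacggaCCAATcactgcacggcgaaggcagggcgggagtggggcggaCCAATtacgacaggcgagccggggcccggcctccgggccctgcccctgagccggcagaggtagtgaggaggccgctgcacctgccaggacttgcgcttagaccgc
Hmgcs1, chr13:119690101-119690400, plus strand: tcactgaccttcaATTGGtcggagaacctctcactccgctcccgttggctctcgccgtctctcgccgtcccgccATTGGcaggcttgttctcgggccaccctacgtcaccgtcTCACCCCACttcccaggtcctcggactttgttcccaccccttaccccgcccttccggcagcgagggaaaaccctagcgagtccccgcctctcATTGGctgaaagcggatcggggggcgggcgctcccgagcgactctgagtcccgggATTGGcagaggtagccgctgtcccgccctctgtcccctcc
Counting from the base that follows the 250 before the start, taken as 0, the box of Tm7sf2 began at -47, the 2 of Ebp at -170 and -55, and the 3 of Msmo1 at -160, -96 and -55. Hmgcs1 had its core element at -137 and 4 CCAAT boxes at -237, -176, -45 and 10. CCAAT occurred in 22 of 33 member promoters (66.7%), in 21 of the 25 genes, and in 37.4% of all 32851 promoters of the same length. GGGCGG, the GC box, occurred on either strand in 24 of 33 (72.7%), beside 35.7% of all promoters. The core TCACNCCAC was found on either strand in 1 of 33 member promoters and 1.24% of all, and the sterol regulatory element itself, which is this core with an A before it, in 0 of 33 and 0.234% of all. These matches are descriptions of letters in a short window.

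On rescue against knockdown, 0 of 31 members were called in either line, where 0.00464% of all genes were called in the withExon3 line and 0.0232% in the withoutExon3 line in the authors' deposited table. At an unadjusted p under 0.05, 1 member was lower in the withExon3 line (Pmvk, beside 0.724% of all genes), and 4 were higher in the withoutExon3 line (Tm7sf2, Ebp, Pmvk and Insig2, beside 2.45%). Among the 12834 genes of at least 1 RPKM, 44 were lower in the withExon3 and 433 higher in the withoutExon3 line at that p. The medians were -0.21 in the withExon3 line, with 28 of 31 below 0, and 0.10 in the withoutExon3 line, with 20 of 31 above 0, in the authors' deposited table. Over all genes of at least 1 RPKM the medians were -0.00 in both, with 50.4% (withExon3) and 50.5% (withoutExon3) below 0. Ebp stood at 27.5 RPKM in rescue and 30.6 RPKM in knockdown cells of the withExon3 line, and at 38.8 RPKM in rescue and 31.2 RPKM in knockdown cells of the withoutExon3 line. Fdps stood at 126 RPKM in rescue and 168 RPKM in knockdown cells of the withExon3 line, and at 175 RPKM in rescue and 122 RPKM in knockdown cells of the withoutExon3 line. Rescue thus lay below knockdown in the first line and above it in the second for both genes. The difference of the rescue changes between the lines passed in 0 of 31 members, beside 0.00928% of all genes, and 5 members had an unadjusted p under 0.05, all lower in the withExon3 line, beside 0.59% of all genes. They were Acat2, Pmvk, Fdps, Ebp and Insig1. Of the 12834 genes of at least 1 RPKM, 56 were higher and 68 lower at that p. This test too was thus cautious, and its count of 0 says little. Rescue against knockdown shares its knockdown libraries with knockdown against control of the same line. A low or high knockdown value thus enters both changes, and their differences between the lines, with opposite sign, so they are not separate evidence.

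Against control, rescue cells of the withExon3 line had 1 of 31 members called, Tm7sf2, and those of the withoutExon3 line 0, where 2.27% (1.3% lower) and 0.924% of all genes were called in the authors' deposited table. Tm7sf2 stood at 13.8 RPKM in rescue and 22.1 RPKM in control cells of the withExon3 line, and at 16.3 RPKM in rescue and 27.1 RPKM in control cells of the withoutExon3 line. It fell by 0.72 on the log2 scale (FDR 0.0497) in the first line and was at -0.69 (FDR 0.114) in the second in the authors' deposited table, so that the 2 changes were of about 1 size on either side of the threshold. Median changes were -0.17 in the withExon3 line, with 23 of 31 below 0, and -0.29 in the withoutExon3 line, with 29 of 31 below 0, beside 51.8% and 53.8% of genes of at least 1 RPKM, in the authors' deposited table. At an unadjusted p under 0.05, 10 members were lower in the withExon3 and 7 in the withoutExon3 line, beside 6.42% and 5.19% of all genes. Among the 12834 genes of at least 1 RPKM, 1051 were lower in the withExon3 and 840 in the withoutExon3 line at that p. The 10 included 5 of the 6 genes of SREBP control and sterol transfer, Srebf1, Scap, Insig1, Insig2 and Stard4, at -0.73 to -0.43 in the authors' deposited table. The 7 in the withoutExon3 line were Hmgcs1 and 6 sterol enzymes, Lss, Cyp51, Tm7sf2, Msmo1, Sc5d and Dhcr7. Each of these comparisons shares its control libraries with the knockdown comparison of the same line, so they are not separate evidence.

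The lines were also set against each other within each condition, always as the withExon3 over the withoutExon3 line. In control cells 2 of 31 members fell, where 3.73% of all genes were called and 1.91% fell, and the median was -0.33 with 28 of 31 below 0, beside 51.8% of genes, in the authors' deposited table. Lss stood at 42.6 RPKM in the withExon3 and 77.7 RPKM in the withoutExon3 control cells, a log2 fold change of -0.85 (FDR 0.00119) in the authors' deposited table. Cyp51 stood at 62.8 RPKM in the withExon3 and 87.6 RPKM in the withoutExon3 control cells, at -0.64 (FDR 0.020) in the authors' deposited table. For these 2 genes the lines were closer in knockdown cells. There Lss was at 53.4 RPKM in the withExon3 and 59.3 RPKM in the withoutExon3 line, and Cyp51 at 65.4 RPKM in the withExon3 and 67.0 RPKM in the withoutExon3 line. Both were picked by their gap between control cells, and not every member was closer on knockdown, as given for Nsdhl below. The enzymes Lss and Cyp51 both act directly on the first ring-closed sterol, Lss by making lanosterol and Cyp51 by demethylating it.

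In knockdown cells 1 of 31 members rose in the withExon3 over the withoutExon3 line and 0 fell, where 2.9% of all genes were called and 1.57% rose, and the median was 0.12 in the authors' deposited table and -0.02 by RPKM ratio. The gene was Nsdhl, the sterol dehydrogenase that acts with Msmo1 in removing the carbon 4 methyl groups. It stood at 25.4 RPKM in the withExon3 and 12.4 RPKM in the withoutExon3 knockdown cells, at 0.96 (FDR 0.000616) in the authors' deposited table. In rescue cells Nsdhl rose again, at 21.0 RPKM in the withExon3 against 13.4 RPKM in the withoutExon3 line (0.66, FDR 0.048), and Pmvk fell, at 25.8 RPKM in the withExon3 against 48.8 RPKM in the withoutExon3 line (-0.94, FDR 0.000187), in the authors' deposited table. Pmvk was lower in control cells too, at 38.0 RPKM in the withExon3 and 60.3 RPKM in the withoutExon3 line (-0.56, FDR 0.0796, in the authors' deposited table), and in knockdown cells stood at 35.3 RPKM in the withExon3 and 39.0 RPKM in the withoutExon3 line. Those called in rescue cells were 2 of 31 members, where 3.29% of all genes were called, 1.55% higher and 1.74% lower, and the median was -0.26 in the authors' deposited table. Nsdhl also stood higher in control cells, at 22.4 RPKM in the withExon3 and 15.9 RPKM in the withoutExon3 line, without passing (0.41, FDR 0.426 in the authors' deposited table). The control libraries of the line comparison are those of the knockdown comparisons, so a high control level in the withoutExon3 line enters both. The lines differed as well in neuroblastoma markers. In control cells Dbh, the dopamine hydroxylase gene, was at 0.20 RPKM in the withExon3 and 8.99 RPKM in the withoutExon3 line. Over the list, 3 of 8 such markers were lower and 0 higher by FDR between control cells in the authors' deposited table, with sums of 372 RPKM in the withExon3 and 536 RPKM in the withoutExon3 line. The part of this difference in the sterol values was not tested.

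**Figure D3:**
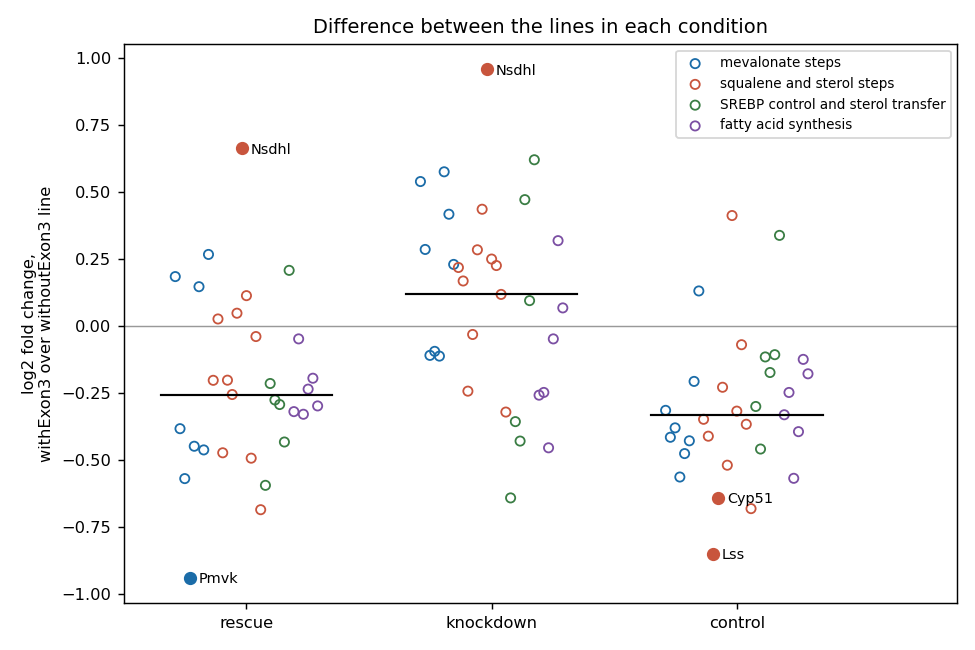
Log2 fold change of the withExon3 over the withoutExon3 line for each member in rescue, knockdown and control cells, from the authors' deposited table, coloured by role, with filled points at an FDR under 0.05 and a bar at the median. Medians are -0.26, 0.12 and -0.33, and the filled points are Pmvk and Nsdhl in rescue, Nsdhl in knockdown, and Lss and Cyp51 in control cells.

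Of 42 further genes of lipid metabolism that were listed beside the members, 39 had a test. On knockdown 1 rose and 1 fell in the withExon3 line, and 2 rose and 1 fell in the withoutExon3 line, in the authors' deposited table. Lipa, the lysosomal acid lipase that frees cholesterol from its esters, stood at 19.2 RPKM in knockdown and 2.15 RPKM in control cells of the withExon3 line, and at 6.01 RPKM in knockdown and 1.07 RPKM in control cells of the withoutExon3 line. It rose by 3.17 (FDR 2.02e-15) in the withExon3 and 2.46 (FDR 6.64e-09) in the withoutExon3 line on the log2 scale in the authors' deposited table. For rescue over control it was at 2.72 in the withExon3 and 1.96 in the withoutExon3 line, past the threshold in both, in the authors' deposited table. Soat1, which esterifies cholesterol, stood at 3.13 RPKM in knockdown and 0.96 RPKM in control cells of the withoutExon3 line (1.43, FDR 0.00114) and at 10.6 RPKM in knockdown and 8.26 RPKM in control cells of the withExon3 line (0.54, FDR 0.420) in the authors' deposited table. Between the control cells it was 2.88 higher in the withExon3 line on the log2 scale (FDR 7.99e-16) in the authors' deposited table. Abca1, the sterol exporter, fell in the withExon3 line, at 0.76 RPKM in knockdown and 3.23 RPKM in control cells (-2.08, FDR 0.0017 in the authors' deposited table). In the withoutExon3 line it was at 0.83 and 1.72 RPKM (-1.095, FDR 0.266). Tecr, the last enzyme of the fatty acid elongation cycle, fell in the withoutExon3 line, at 187 RPKM in knockdown and 271 RPKM in control cells (-0.71, FDR 0.048 in the authors' deposited table). In the withExon3 line it was at 191 and 250 RPKM, a change of about the same size that did not pass (-0.66, FDR 0.061). The other genes called were Acacb, lower in the withExon3 line in knockdown and rescue cells, Fntb, lower there in rescue cells, and Osbpl8, higher there in rescue cells. The 4 genes of SREBP processing with a test had medians of 0.04 in the withExon3 and 0.11 in the withoutExon3 line on knockdown, and the 15 genes of fatty acid supply and elongation -0.28 in the withExon3 and -0.34 in the withoutExon3 line, in the authors' deposited table.

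Splicing of the members was read from percentages in each library, for exon inclusion, splice site use and intron retention. Entries were present under the members' own symbols for 29 of 31 members, 687 in all, with none for Hmgcs1. Msmo1 was listed under its older symbol Sc4mol, with 15 further entries, of which 0 were tested. Among the 687 entries, 71 events in 20 members had a value in each of the 12 libraries with a mean between 2 and 98%. They were 43 introns, 17 exons and 11 splice sites. By limma with Benjamini-Hochberg adjustment over all 28980 events, 0 of 71 were called (adjusted p under 0.05 and at least 15 points) on knockdown in the mean of both lines, where 1.48% of all events were, and 11 had an unadjusted p under 0.05, beside 19.1%. The count was also 0 in each line alone, beside 0.338% in the withExon3 and 0.0207% in the withoutExon3 line, and in each of the 7 other contrasts, in which at most 0.00345% of all events were called. With the replicate number as a block, 524 events were called on knockdown in the mean of both lines, 258 in the withExon3 and 63 in the withoutExon3 line, against 430, 98 and 6 without the block, and the members' count was 0 in each. At an unadjusted p under 0.05 there were 4 member events on knockdown in the withExon3 and 7 in the withoutExon3 line, beside 13.5% and 10.5% of all events. Against knockdown, rescue had 1 in the withExon3 and 6 in the withoutExon3 line, beside 6.84% and 8.57%. Against control it had 5 in the withExon3 and 0 in the withoutExon3 line, beside 8.39% and 5.58%. Control cells differed between the lines in 1 member event, beside 4.24%, and the differences of the knockdown and rescue changes gave 1 each, beside 3.2% and 5.27%.

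Introns under 100 nt, 12 among the members, had a median change of 3.28 points on knockdown in the mean of both lines, with 11 of 12 above 0, beside 3.52 points and 91.4% above 0 over all 1958 such introns. Of those 1958, 7.61% were called, and of the members' 12, 0. The members' short introns thus lay where short introns lay at large. Dropping the minimum of 15 points, which was tried after the values were seen, 2 events of the 71 had an adjusted p under 0.05, against 3.86% of all events and 17.7% of introns under 100 nt, and both were such introns.

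The first was a 77 nt intron of Scap (mm9 chr9:110283990-110284066). It was retained at 5.56 and 5.71% in the knockdown and 1.49 and 2.89% in the control libraries of the withExon3 line. In the withoutExon3 line it was at 9.09 and 11.6% in the knockdown and 1.54 and 2.99% in the control libraries. Knockdown lay above control in every library of both lines, and the change over both was 5.77 points (SE 1.25, limma adjusted p 0.0295). The second, a 75 nt intron of Fasn (mm9 chr11:120676530-120676604), was at 3.88 and 4.83% in the knockdown and 0.39 and 0.61% in the control libraries of the withExon3 line. In the withoutExon3 line it was at 3.02 and 6.72% in the knockdown and 0.31 and 0.88% in the control libraries. Here too the groups did not overlap in either line, and the change was 4.07 points (SE 0.88, limma adjusted p 0.0304). This intron passed the 2% minimum, set on the mean of all 12 libraries, only with its high knockdown libraries counted. Its gap and adjusted p are thus not separate from the filter, and with no filter on the mean the limma adjusted p was 0.108. How many of all events show such gaps as these 2 introns was not counted. Over the settings tried the adjusted p ranged from 0.0189 to 0.132 for Scap and from 0.00786 to 0.125 for Fasn. Both missed 0.05 with any 1 of the 4 control libraries left out, without replicate 2 of either knockdown, and with no filter on the mean, Scap also without replicate 1 of the withExon3 knockdown, and Fasn also with a plain variance prior. For Scap the rescue libraries stood at 1.99 and 5.38% in the withExon3 and 2.5 and 3.94% in the withoutExon3 line. For Fasn they stood at 2.27 and 2.46% in the withExon3 and 0.56 and 1.49% in the withoutExon3 line, below every knockdown library of their own line.

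Tm7sf2, the member that fell most in level, had 6 events tested. Its 84 nt intron (mm9 chr19:6066415-6066498) was retained at 26.8 and 9.38% in the knockdown and 2.22 and 9.62% in the control libraries of the withExon3 line, and at 25 and 9.09% in the knockdown and 4.17 and 6.33% in the control libraries of the withoutExon3 line. Replicate 1 of the knockdown was high in both lines and replicate 2 lay near its controls. The change of 11.99 points (SE 4.41) did not pass (limma adjusted p 0.167) and ranged from 7.63 to 16.4 points when single libraries were left out. A 274 nt intron of the same gene (mm9 chr19:6066694-6066967) was at 52.4 and 39.6% in rescue and 28.0 and 29.6% in control libraries of the withExon3 line, a change of 17.2 points (SE 6.06, limma adjusted p 0.495). Rescue lay above control there in both libraries, while in the withoutExon3 line the 30.3 and 31.2% of rescue lay between the 20.7 and 31.7% of control.

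**Figure D4:**
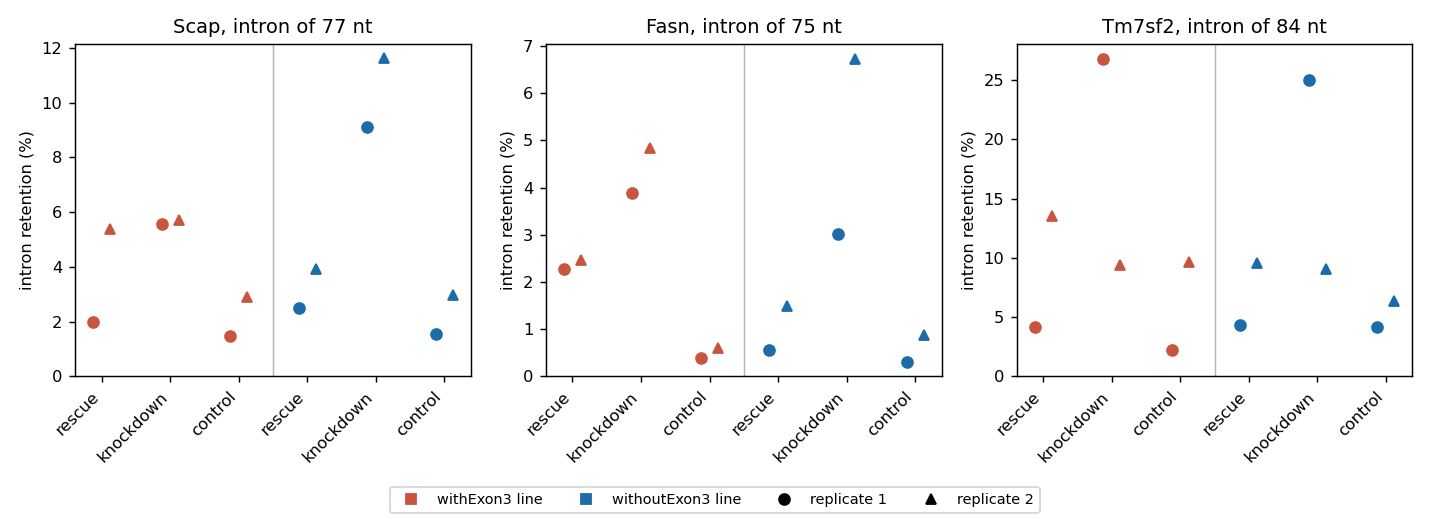
Intron retention in percent in every library for 3 introns under 100 nt, of Scap, Fasn and Tm7sf2, in rescue, knockdown and control cells of the withExon3 line (red) and the withoutExon3 line (blue), with replicate 1 as circles and replicate 2 as triangles. For Scap and Fasn every knockdown library lies above its line's controls, and for Tm7sf2 only replicate 1 does in the withExon3 line, at 26.8% against 2.22 and 9.62%. The Fasn intron passed the filter on the mean only with its knockdown libraries counted.

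Of the other member events named here, none passed. A 3' splice site of Mvk (mm9 chr5:114900250-114900430) was used at 23.7 and 25.7% in the knockdown and 39.5 and 42.1% in the control libraries of the withExon3 line, a change of -16.1 points (SE 5.65, limma adjusted p 0.244). The withoutExon3 line had 37.1 and 39.2% in knockdown and 44.9 and 39.2% in control libraries, and the difference between the lines was -12.2 points (SE 8.00, limma adjusted p 1.00). For a 5' splice site of Ggps1 (mm9 chr13:14151191-14151717) the rescue libraries were at 17.7 and 12.0% and the control libraries at 33.3 and 25.6% in the withExon3 line (-14.7 points, SE 6.60, limma adjusted p 0.591). In the withoutExon3 line they were at 24.2 and 32.3% in rescue and 35.1 and 15.8% in control, so that rescue lay within the range of the controls. Its knockdown libraries were at 11.5 and 23.3% in the withExon3 and 38.1 and 35.5% in the withoutExon3 line, and the knockdown change differed between the lines by -23.4 points (unadjusted p 0.0292, limma adjusted p 1.00), a value named after it was seen. A 30 nt exon of Acly (mm9 chr11:100364474-100364503) was included at 58.2 and 63.9% in control libraries of the withExon3 and at 69.9 and 77.1% in those of the withoutExon3 line (-12.4 points, SE 3.91, unadjusted p 0.00876, limma adjusted p 1), and was named after its values were seen. In knockdown libraries it was at 55.1 and 55.6% in the withExon3 and 67.2 and 72.8% in the withoutExon3 line. In rescue libraries it was at 58.3 and 64.3% in the withExon3 and 72.8 and 74.3% in the withoutExon3 line. The lines did not overlap in any of the 3 conditions. How many of all events show this was not counted, so for an exon picked by its values it has no background.

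The authors' own list of 2175 differential events held 1 event of a member, a 216 nt exon of Fdps (mm9 chr3:88904843-88905058), which was not tested here because libraries lacked a value. The exon was called at -51.54 points on knockdown in the withExon3 line and at -17.71 points for rescue against control in the withoutExon3 line in the authors' deposited table. Behind the first call stood 1 knockdown library at 43.4%, the other having no value, against 96.4 and 88.5% in the controls. Behind the second stood 66.7 and 52.4% in rescue against 82.6 and 73.5% in control libraries. Knockdown libraries of the withoutExon3 line and rescue libraries of the withExon3 line had no value for it.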

How the data were processed

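RNA-seq libraries of 12 N2a cultures in 6 groups, 2 biological replicates each per the labels, were analysed from the authors' tables. Per the submitters' processing notes, reads were processed with Salmon 0.14.1 and edgeR on build mm9. The deposited table holds 1 RPKM per group, and neither the way replicates were combined nor their depth is stated in the labels. Log2 fold changes, p-values and FDRs for 9 comparisons are the authors' deposited values, and FDRs recomputed by Benjamini-Hochberg differed by at most 0.000554. Splicing is the deposited percent per event and library from vast-tools whose version and coverage minimum the labels do not state. The authors' event list gives a change in percentage points, a score per event and comparison, with a TRUE or FALSE call. Read depth behind a percent is unknown, so no counting interval is given.

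From these, RPKM ratios were taken as log2((RPKM + 0.1)/(RPKM + 0.1)). The knockdown and rescue changes of the 2 lines were compared by the difference of signed z values over the square root of 2, with two-sided normal p-values adjusted over 21541 genes. Percentages were fitted with limma 3.58.1 in R 4.3.3 (6 group means, trend and robust) over 28980 events valued in each of the 12 libraries with a mean between 2 and 98%, and an event was called at an adjusted p under 0.05 and at least 15 points. The scripts were tried on simulated data with large changes only, for splicing in events near the middle of the percent scale. This says little of their power for small changes, such as those of the short introns. The members and lists were chosen with earlier results of these data known. Members are described by role, in full where the FDR passed in any comparison and for Srebf1 and Srebf2, and other listed genes are named where they passed. Events are named where a change in the mean of both lines or within 1 line reached 10 points with an unadjusted p under 0.05, or where they stand in the authors' list, and others are marked as chosen after their values were seen. Same-numbered libraries of 1 line deviated together (correlations of replicate differences 0.149 to 0.31 within lines). Between lines the correlations were 0.0417 to 0.221, so the 2 ranges overlap. The numbers were taken to pair the libraries only in an alternative fit with the replicate number as a block. Named p-values and main counts come from the fit without it. The values of 1 neuroblastoma marker are not reported here by themselves.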

Additional observations from a re-analysis of the deposited data

How the results depend on the processing

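Leaving out each library in turn gave 0 called member events in every contrast (range 0 to 0), as did the logit scale, a plain variance prior, no filter on the mean, values in at least 10 libraries and a minimum of 10 points. A count already at 0 shows little of stability, since over all events the same omissions moved the knockdown calls from 430 to between 168 and 577 in the mean of both lines, with 168 without withoutExon3 control replicate 1, 176 without withExon3 control replicate 1 and 220 without withoutExon3 knockdown replicate 2. In the withExon3 line, 98 calls became 0 without either of its control libraries and at most 144, and in the withoutExon3 line 6 became 206 without its knockdown replicate 1 and at most 4 without any other library. With the replicate number as a block, 0 member events were called in each contrast, while calls over all events rose as given beside the splicing counts. With no minimum of points, chosen after seeing the data, 2 member events were called on knockdown in the mean of both lines. At an FDR threshold of 0.1 in the authors' deposited table, 2 members were called on knockdown in the withExon3 line and 7 in the withoutExon3 line. Over all 21541 genes tested, 1162 and 758 were called there. For rescue against control in the withExon3 line 2 members were called, beside 690 of all genes. Between the lines 4 were called in control, 2 in knockdown and 3 in rescue cells, beside 1008, 842 and 964 of all genes. Adjusting over the 12834 genes of at least 1 RPKM gave 1 call (Srebf1) on knockdown in the withExon3 line and 3 in the withoutExon3 line. Of those 12834 genes, 659 and 374 were called. No reported change turned its direction under these thresholds and fits, but between fold change and RPKM ratio the sign differed for 1 to 4 members per comparison and for the members' medians on knockdown in the withExon3 line (0.03 and -0.03) and between knockdown cells (0.12 and -0.02). Because expression has 1 value per group, no library could be left out of it and no replicate block could be fitted. The causes of these shifts were not tested.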
